A study of Mus musculus with 13 samples.

Results

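Hepatocyte lineage transcription factors are the 9 genes Foxa1, Foxa2, Foxa3, Cebpa, Cebpb, Onecut1, Onecut2, Prox1 and Nfia, chosen by name as factors of the hepatocyte that are not nuclear receptors. All 9 were found among the 23361 gene symbols of the deposited tables, and all 9 passed the filter on low counts. They were measured in RNA of liver tumours from mice of genotype Mst1-/-; Mst2Flox/Flox on a mixed (C57BL/6; 129Sv) background. These animals lack the Hippo kinase Mst1 in the germline and lost Mst2 in the liver through an injected adenovirus that carried Cre, so that both groups share the loss of both kinases, and no tumour with intact kinases is analysed here. After hepatocellular carcinoma was seen by ultrasound, 5 siYap libraries came from mice given siYap-LNPs and 8 siLuc libraries from mice given siLuciferase-LNPs, each for 9 days. The siRNA of the siYap group lowers Yap, the co-activator that Mst1 and Mst2 restrain, and luciferase has no counterpart in the mouse. The age of the mice is not given in the sources used here, nor which tumours shared an animal, so p-values measure the spread between libraries.

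Liver identity is held by a small network of transcription factors that bind each other's genes and the genes of liver secretion and metabolism. FoxA proteins open closed chromatin at liver enhancers during development, C/EBP proteins drive metabolic genes (alpha) and the response to inflammation and injury (beta), and the Onecut factors, of which Onecut1 is also called HNF6, act in both hepatocytes and bile ducts. Prox1 is needed for hepatoblasts to spread and become hepatocytes, and Nfia belongs to the nuclear factor I family, which binds many liver enhancers next to the other factors.

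Libraries held 23637021 to 33557410 fragments on genes in siYap and 28856417 to 37043914 in siLuc. Yap1 averaged 3.29 ± 0.845 FPKM in siYap and 9.999 ± 1.37 FPKM in siLuc (SD, n = 5 and 8). FPKM counts fragments per length of transcript and per size of library, a level that can be compared between genes. siYap replicates 1 and 3 had the lowest totals and the most ribosomal precursor Rn45s, at 1160 and 1882 CPM (fragments scaled to library size only), against 479 to 812 CPM in the other 11 libraries. A code in the file names splits the libraries by its first digit into 6, 7 and 8, each with both treatments, and what the digit stands for is not given. The 16 hepatocyte markers summed to 18507 to 29738 FPKM in siYap and 22631 to 35030 FPKM in siLuc without any at 0 in all libraries. Of the 16, 2 rose and 2 fell, beside 16.0% and 14.8% of all tested genes. In bulk RNA, fewer cells of a type and less RNA per cell cannot be told apart.

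The promoters of Foxa1 and Nfia, which had the largest rises of the 9, and of Foxa2, a FoxA gene that did not pass the test, are shown to place these genes. Each runs from 250 bases before to 50 bases after a RefSeq transcript start (build GRCm38.p6, the same assembly as the mm10 of the submitters' processing notes), read along the gene's own strand. Capitals mark matches to short motifs searched on both strands. The Foxa1 window (chr12:57546062-57546361, minus strand) holds a FoxA motif, TGTTTAC, at position -141 from the start and on the opposite strand.
Foxa1: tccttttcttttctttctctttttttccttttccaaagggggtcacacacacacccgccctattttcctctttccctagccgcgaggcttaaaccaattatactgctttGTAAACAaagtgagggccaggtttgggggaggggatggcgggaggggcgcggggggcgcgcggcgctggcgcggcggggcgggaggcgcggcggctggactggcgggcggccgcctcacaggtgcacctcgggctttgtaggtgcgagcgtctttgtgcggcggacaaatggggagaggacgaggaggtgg
The Nfia window (chr4:97581693-97581992, plus strand) belongs to a start upstream of the gene's GENCODE span and holds a TCF/LEF motif, CTTTGAT, at position -205.
Nfia: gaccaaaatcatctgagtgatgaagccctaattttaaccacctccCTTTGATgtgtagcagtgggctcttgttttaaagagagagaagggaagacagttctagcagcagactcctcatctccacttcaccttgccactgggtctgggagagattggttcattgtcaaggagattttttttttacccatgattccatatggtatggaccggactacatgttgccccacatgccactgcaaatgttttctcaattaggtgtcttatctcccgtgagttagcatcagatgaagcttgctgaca
The Foxa2 window (chr2:148046920-148047219, minus strand) holds the core of the HNF6 motif, ATTGAT, at position -213.
Foxa2: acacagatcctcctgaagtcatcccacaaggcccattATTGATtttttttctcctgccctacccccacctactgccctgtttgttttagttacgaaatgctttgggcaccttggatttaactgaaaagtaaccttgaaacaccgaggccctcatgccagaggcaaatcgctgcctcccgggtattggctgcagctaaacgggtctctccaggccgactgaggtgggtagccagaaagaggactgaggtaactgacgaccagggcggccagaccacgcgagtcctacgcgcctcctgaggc
Among 32851 promoter windows of this length, 3.65% hold the FoxA motif, 3.73% the TCF/LEF motif and 7.54% the HNF6 core. The TEAD motif GGAATG, to which the DNA-binding partners of Yap bind, stands in 14.7% of all windows and the C/EBP motif TTGCNNAA in 10.8%. Neither is in any of the 11 windows of the 8 factors searched, which says only that these letters are not there. Another Foxa2 window holds the TCF/LEF motif on the opposite strand, read as ATCAAAG, at position 15.

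Of the 9 factors, 5 rose in siYap tumours, none fell and 4 did not pass the test. Over all 15132 genes tested, 16.0% rose and 14.8% fell, which is 30.8% in either direction, by edgeR's quasi-likelihood test with Benjamini-Hochberg adjustment over all genes at an adjusted p under 0.05. The 5 that rose were Nfia, Foxa1, Prox1, Onecut2 and Cebpb, by 1.86-fold to 2.65-fold. The median log2 fold change of the 9 was 0.90, beside -0.0026 over all genes. Foxa2 and Foxa3 had nearly the same mean FPKM in both groups, and the means of Cebpa and Onecut1 were lower in siYap without passing the test. Every log2 fold change below is siYap over siLuc from this fit unless another is named.

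**Figure D1:**
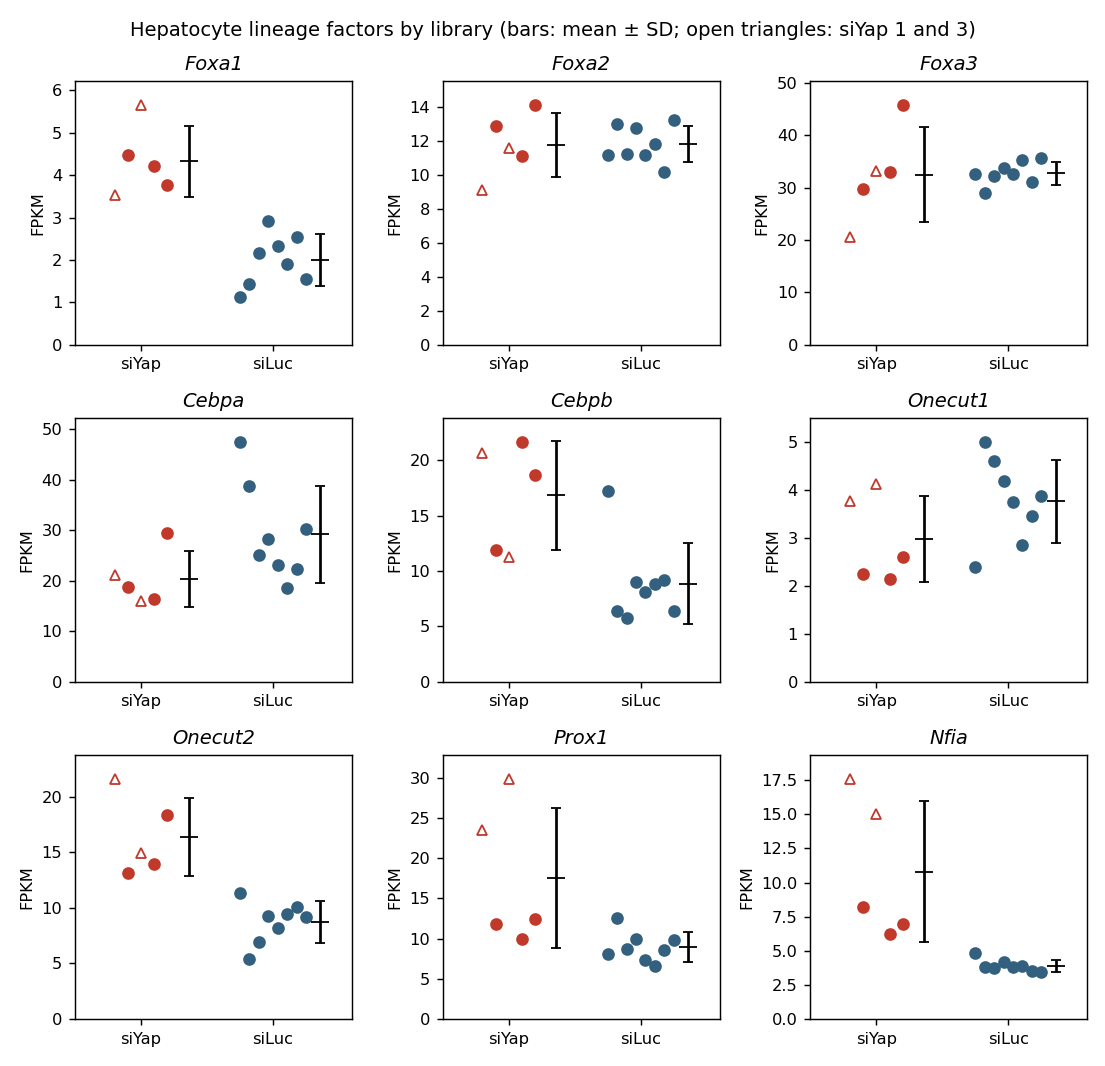
FPKM (vertical axis, from 0) of each of the 9 factors in the 5 siYap and the 8 siLuc libraries, 1 point a library, with the mean ± SD beside each group; open triangles are siYap replicates 1 and 3. All siYap points of Foxa1, Onecut2 and Nfia lie above all siLuc points, as for 5.57% of all tested genes (5.66% the opposite). siYap replicates 1 and 3 stand apart from the other siYap libraries for Nfia, Prox1 and Onecut1.

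The FoxA genes encode forkhead proteins with closely related DNA-binding domains. Foxa1 (chromosome 12, 57540628 to 57546916, minus strand) was measured at 3.52, 4.47, 5.65, 4.21 and 3.76 FPKM in siYap replicates 1 to 5, against a lowest of 1.12, a median of 2.03 and a highest of 2.91 FPKM in siLuc. Every siYap library lay above every siLuc library, which held for 5.57% of all tested genes in FPKM (5.66% had every siYap library below). On the log2 scale Foxa1 rose by 1.101 ± 0.24 (SE; edgeR adjusted p = 0.00358). It rested on 100 to 546 fragments per library. The rise was also found within each digit of the file code, at 1.70, 1.03 and 1.29 on the log2 scale for digits 6, 7 and 8. Digit 8 has 1 library per treatment. In digit 6 the libraries of each treatment share a number in the file names, as do the siYap libraries of digit 7. What that number stands for is not given, and the same limits hold for the within-digit differences of the other factors.

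Foxa2 (chromosome 2, 148042877 to 148046969, minus strand) had 9.14, 12.9, 11.6, 11.1 and 14.1 FPKM in siYap replicates 1 to 5, and between 10.2 and 13.3 FPKM, with a median of 11.5, in siLuc. The groups overlapped, and the fitted log2 difference of 0.0042 ± 0.13 (SE) had a 95% interval of -0.27 to 0.27. The level of Foxa2 may thus have differed by up to 1.21-fold in either direction within that interval. Foxa3 (chromosome 7, 19013284 to 19023538, minus strand), the most abundant FoxA gene here, had 20.7, 29.8, 33.3, 33.1 and 45.8 FPKM in siYap replicates 1 to 5. In siLuc it ran from 28.9 to 35.6 FPKM, with a median of 32.6. siYap replicate 1 was below and siYap replicate 5 above every siLuc library, so the spread was wider in siYap (SD 9.03 FPKM) than in siLuc (SD 2.18 FPKM). The fitted log2 difference of Foxa3 was 0.0038 ± 0.14 (SE), with a 95% interval of -0.30 to 0.31. Within digits 6, 7 and 8 of the file code the log2 differences were -0.072, -0.027 and 0.10 for Foxa2 and -0.23, -0.0096 and 0.38 for Foxa3, without a common sign.

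The summed FoxA level was 48.6 ± 10.8 FPKM in siYap and 46.6 ± 2.71 FPKM in siLuc (SD, n = 5 and 8), with overlap. Foxa1 made up 9.17 ± 2.06% of that sum in siYap and 4.28 ± 1.28% in siLuc, and its lowest siYap share, 5.91%, lay just above its highest siLuc share, 5.88%. Foxa3 made up 66.3 ± 4.01% in siYap and 70.3 ± 1.90% in siLuc, and Foxa2 24.6 ± 2.60% in siYap and 25.4 ± 2.07% in siLuc, both with overlap. The paralog that was lowest in siLuc tumours was thus the only FoxA gene of the 3 to pass the test. The ratio of Foxa1 to Foxa3 in fragments had a median of 0.230 in siYap and 0.0983 in siLuc, and its ranges of 0.133 to 0.276 in siYap and 0.0470 to 0.140 in siLuc overlapped. The FoxA shares and this ratio are built from the levels above, were not tested and add no separate result.

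**Figure D2:**
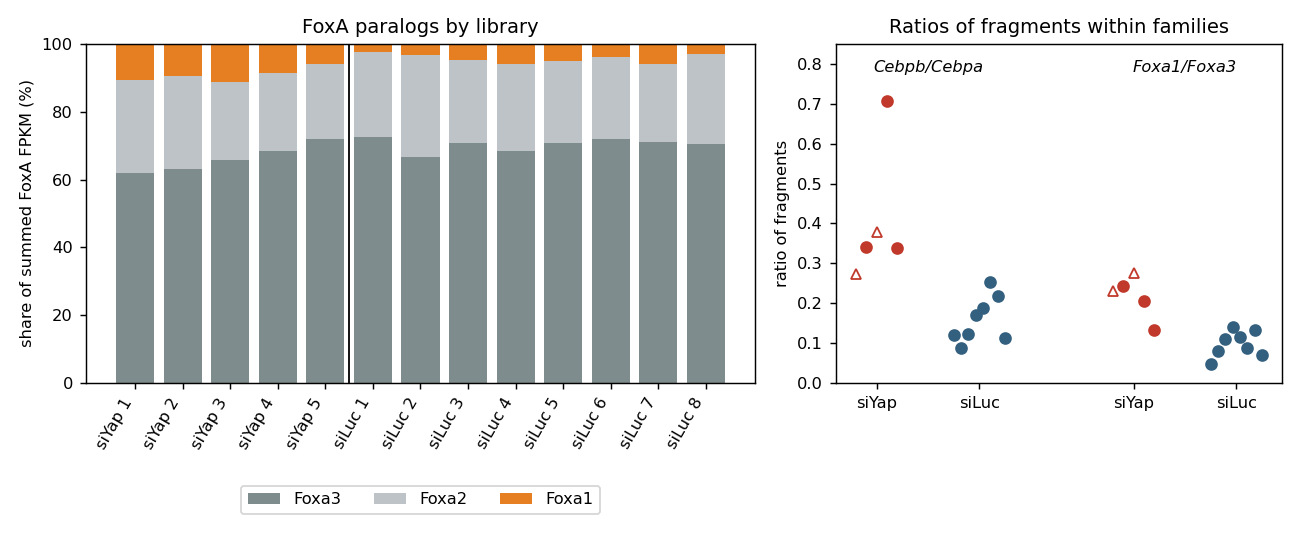
Left, share of the summed FoxA level (percent of FPKM) held by Foxa1, Foxa2 and Foxa3 in each library, siYap before the vertical line and siLuc after it. Right, ratio of fragments of Cebpb to Cebpa and of Foxa1 to Foxa3, 1 point a library, open triangles for siYap replicates 1 and 3: the Cebpb ratio is 0.273 to 0.708 in siYap and 0.0885 to 0.254 in siLuc, without overlap.

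Of the 2 C/EBP genes, Cebpb rose and Cebpa did not pass the test. Cebpb (chromosome 2, 167688915 to 167690418, plus strand), the form induced by cytokines and in regeneration, was at 20.6, 11.9, 11.3, 21.6 and 18.6 FPKM in siYap replicates 1 to 5. In siLuc the lowest was 5.79, the median 8.46 and the highest 17.2 FPKM, the last in siLuc replicate 1. The deposited FPKM of this short gene was uneven against its fragments. Per CPM it was 2.11 times the median library in siYap replicate 1 and 1.88 times in siLuc replicate 1, against 0.986 to 1.02 times in the other 11. For the remaining 8 factors the same quantity was between 0.932 and 1.30 in siYap replicate 1 and between 0.988 and 1.36 in siLuc replicate 1, with Nfia highest.

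In CPM scaled by TMM, edgeR's correction of library totals, Cebpb stood at 14.98, 18.5, 17.1, 33.0 and 28.8 in siYap replicates 1 to 5, against 8.98 to 14.2 in siLuc. On that scale every siYap library lay above every siLuc library, as for 6.32% of all tested genes (5.84% had every siYap library below), whereas the FPKM values of the groups overlapped. Cebpb rose by 0.90 ± 0.20 (SE) on the log2 scale (edgeR adjusted p = 0.00394). Within digits 6, 7 and 8 of the file code the differences were 0.51, 0.93 and 1.55 on the log2 scale. Tmem189 overlaps Cebpb by 908 bases on the opposite strand, and it rose as well (log2 fold change 1.34 ± 0.24, edgeR adjusted p = 0.000985), at 3.21 ± 1.03 FPKM in siYap and 1.30 ± 0.460 FPKM in siLuc. Whether strand was used in counting is not given in the sources used here, so reads of these genes cannot be told apart. Antisense genes also overlap Cebpa, by 313 bases, and Prox1, by 964 and 419 bases, and E130114P18Rik overlaps Nfia by 5345 bases on the opposite strand and was at 0 in all libraries.

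Cebpa (chromosome 7, 35119293 to 35121928, plus strand), the form of the resting metabolic hepatocyte and a brake on the cell cycle, had 21.1, 18.7, 15.9, 16.3 and 29.5 FPKM in siYap replicates 1 to 5. Its siLuc values ran from 18.5 to 47.4 FPKM with a median of 26.7, and 2 siYap libraries lay below all of them. Its fitted log2 difference of -0.51 ± 0.20 (SE) had a 95% interval of -0.94 to -0.07, but the edgeR adjusted p of 0.0707 missed the threshold. Cebpa passed it in a fit with that digit as a covariate (-0.64, edgeR adjusted p = 0.00654), without siYap replicate 5 (-0.70, adjusted p = 0.0181) and without siLuc replicate 6 (-0.58, adjusted p = 0.0411). Over the 25 alternatives its sign was negative throughout and its adjusted p ran from 0.00654 to 0.295. The differences within digits 6, 7 and 8 were -1.05, -0.55 and -0.02 on the log2 scale.

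The ratio of the C/EBP genes is built from the values above, was not tested, and adds no separate result. How many gene pairs separate the groups in this way was not counted. In fragments, Cebpb over Cebpa was 0.273, 0.341, 0.378, 0.708 and 0.338 in siYap replicates 1 to 5, against a lowest of 0.0885, a median of 0.146 and a highest of 0.254 in siLuc. The ratio did not overlap between the groups in fragments or in FPKM, where it ran from 0.632 to 1.33 in siYap and from 0.166 to 0.476 in siLuc. The summed level of both genes was 37.1 ± 8.43 FPKM in siYap and 38.1 ± 12.1 FPKM in siLuc (SD, n = 5 and 8). This sum, like the ratio in FPKM, holds the uneven Cebpb FPKM of siYap replicate 1 and siLuc replicate 1.

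Of the Onecut genes, Onecut2 rose and Onecut1 did not pass the test. Onecut2 (chromosome 18, 64340020 to 64400987, plus strand), which shares much of the DNA binding of Onecut1, had 21.6, 13.1, 14.9, 13.96 and 18.4 FPKM in siYap replicates 1 to 5. In siLuc it ran from 5.36 to 11.3 FPKM with a median of 9.20, below every siYap library. That held for 5.57% of all tested genes, and the opposite for 5.66%. Onecut2 rose by 0.90 ± 0.16 (SE) on the log2 scale (edgeR adjusted p = 0.000745), and the test rested on 3013 to 8468 fragments per library. The differences within digits 6, 7 and 8 were 1.17, 0.71 and 1.02 on the log2 scale.

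Onecut1 (chromosome 9, 74861921 to 74891781, plus strand), the HNF6 gene, which is needed in the making of bile ducts, was at 3.77, 2.25, 4.12, 2.15 and 2.59 FPKM in siYap replicates 1 to 5. The siLuc values were 2.39 to 4.997 FPKM with a median of 3.81, and the groups overlapped. GENCODE lists Gm20649, a long noncoding RNA on the same strand that overlaps the gene by 29556 bases, so reads of either cannot be told apart even by strand. The fitted log2 difference of Onecut1 was -0.32 ± 0.22 (SE), with a 95% interval of -0.79 to 0.16 and an edgeR adjusted p of 0.295. Within digits 6, 7 and 8 the differences were -0.18, -0.34 and -0.56 on the log2 scale. siYap replicates 1 and 3 held the 2 highest siYap values, and without both Onecut1 was called lower (-0.69 ± 0.22, edgeR adjusted p = 0.0448). Onecut2 was above Onecut1 in all 13 libraries, by 3.61 to 7.08 times in FPKM in siYap and 1.07 to 4.73 times in siLuc. Their summed level was 19.4 ± 4.02 FPKM in siYap and 12.5 ± 1.16 FPKM in siLuc (SD, n = 5 and 8), and its ranges of 15.4 to 25.3 FPKM in siYap and 10.4 to 13.7 FPKM in siLuc did not overlap. The sum mostly restates Onecut2, was not tested and adds no separate result. How many such sums separate the groups was not counted. Onecut2 made up 84.6 ± 3.66% of that sum in siYap and 69.2 ± 9.65% in siLuc, with overlap.

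Prox1 (chromosome 1, 190118035 to 190170714, minus strand), a homeobox factor that also marks lymphatic endothelium, was at 23.6, 11.8, 29.8, 9.94 and 12.4 FPKM in siYap replicates 1 to 5. It ran from 6.54 to 12.5 FPKM, with a median of 8.62, in siLuc. In FPKM only siYap replicates 1 and 3 lay above all siLuc libraries. In TMM-scaled CPM siYap replicate 5 did so too, at 58.0 against a siLuc highest of 57.1. Prox1 rose by 0.97 ± 0.24 (SE) on the log2 scale (edgeR adjusted p = 0.00767). Without siYap replicates 1 and 3 the value was 0.36 ± 0.17 (edgeR adjusted p = 0.164), so that the call rests on them together. The call held with any 1 library left out. Within digits 6, 7 and 8 the differences were 0.79, 1.06 and 0.34 on the log2 scale. Of the 7 lymphatic endothelial markers tested, 5 had a positive log2 fold change, 1 rose and 1 fell, with a median of 0.45. Among all tested genes 16.0% rose and 14.8% fell. Lyve1, which liver sinusoidal endothelium also expresses, rose to 8.86 ± 5.67 FPKM in siYap, against 2.11 ± 1.59 FPKM in siLuc (edgeR adjusted p = 0.0108). Reln was at 11.01 ± 4.605 FPKM in siYap and 5.33 ± 2.78 FPKM in siLuc (edgeR adjusted p = 0.0761). Pdpn fell to 0.217 ± 0.083 FPKM in siYap, against 0.643 ± 0.378 FPKM in siLuc (edgeR adjusted p = 0.0271), and lost its call without any 1 of siYap replicates 3 and 4 and siLuc replicate 3 (log2 fold changes of -1.43, -1.32 and -1.25). Ccl21a and Foxc2 had at most 11 and 8 fragments in any library and were not tested. The whole list of 9 summed to 23.0 to 48.7 FPKM in siYap and 16.8 to 28.04 FPKM in siLuc, with none at 0 in all libraries, and its part in the level of Prox1 was not tested.

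Nfia (chromosome 4, 97772734 to 98118874, plus strand) had the largest rise of the 9. It stood at 17.6, 8.18, 15.1, 6.20 and 6.98 FPKM in siYap replicates 1 to 5, against a lowest of 3.44, a median of 3.82 and a highest of 4.85 FPKM in siLuc. No siLuc library reached the lowest siYap library, as for 5.57% of all tested genes in FPKM and 6.32% in TMM-scaled CPM. The opposite held for 5.66% and 5.84%. The siLuc libraries were close together. Nfia rose by 1.41 ± 0.18 (SE) on the log2 scale (edgeR adjusted p = 8.07e-05). Without siYap replicates 1 and 3, which were again highest, it was 0.93 ± 0.10 with an adjusted p of 0.000105. The differences within digits 6, 7 and 8 were 1.53, 1.31 and 1.05 on the log2 scale.

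**Figure D3:**
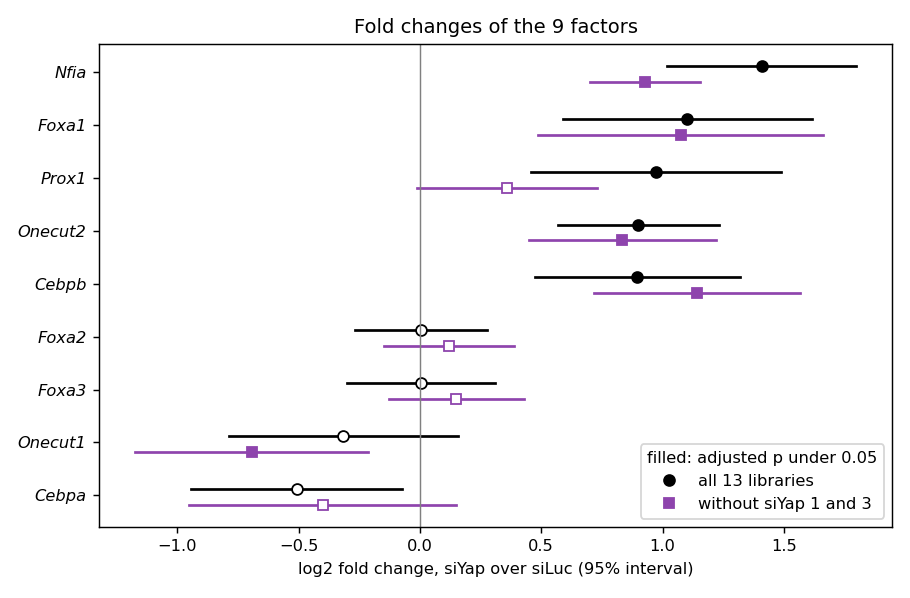
Log2 fold change of each factor (horizontal axis, siYap over siLuc) with its 95% interval, from all 13 libraries (circles) and without siYap replicates 1 and 3 (squares); filled symbols passed an adjusted p under 0.05. Nfia, Foxa1, Onecut2 and Cebpb are filled in both, Prox1 is filled only with all libraries, and Onecut1 only without the 2.

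siYap replicates 1 and 3 stood apart for 3 of the 9 factors, a description only, since the share of all genes was not counted. In FPKM their levels of Nfia, Prox1 and Onecut1 lay above those of siYap replicates 2, 4 and 5 without overlap, while those of Foxa1, Foxa2, Foxa3, Cebpa, Cebpb and Onecut2 did not separate. In TMM-scaled CPM their Cebpb lay below that of the other 3. Each shares a number in the file names with another siYap library, replicate 1 with 2 and replicate 3 with 4, so libraries of 1 number differed in these genes. Beside their Rn45s, these libraries held 1872 and 1213 FPKM of the nuclear RNA Malat1, against 871 to 1040 FPKM in the other siYap libraries and 801 to 1338 FPKM in siLuc. Neat1, also nuclear, was at 119 and 190.002 FPKM in siYap replicates 1 and 3, against 71.2 to 110 FPKM in the other siYap and 52.8 to 97.1 FPKM in siLuc libraries. The part of total depth or RNA quality in these levels was not tested. Without both libraries 4 of the 9 factors rose and Onecut1 fell, where 9.82% of 15395 tested genes rose and 9.56% fell.

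The order of levels differed between the groups. In siYap tumours the mean FPKM ran Foxa3, Cebpa, Prox1, Cebpb, Onecut2, Foxa2, Nfia, Foxa1 and Onecut1, and in siLuc tumours Foxa3, Cebpa, Foxa2, Prox1, Cebpb, Onecut2, Nfia, Onecut1 and Foxa1. Close neighbours had no firm order. In siYap Prox1 was above Cebpb, and Cebpb above Onecut2, in 2 of 5 libraries each. In siLuc Cebpb was above Onecut2 in 2 of 8, with its mean raised by siLuc replicate 1. The siYap mean of Cebpb likewise holds the uneven FPKM of siYap replicate 1, at 2.11 times the median library per CPM. The ranges of neighbours in siYap overlapped except between Nfia and Foxa1. In siLuc they overlapped except between Cebpa and Foxa2 and between Onecut2 and Nfia. Foxa1, at the bottom in siLuc (1.99 ± 0.606 FPKM), was above Onecut1 in 4 of 5 siYap libraries (Foxa1 4.32 ± 0.831 FPKM and Onecut1 2.98 ± 0.906 FPKM in siYap, SD, n = 5).

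Within siLuc tumours the factors varied by library. Cebpa was highest in siLuc replicates 1 and 2, at 47.4 and 38.8 FPKM, against 18.5 to 30.2 FPKM in the other 6. The same 2 libraries, which share a number in the file names, held the lowest Foxa1, at 1.12 and 1.44 FPKM. They are also the only siLuc libraries of digit 6 of the file code. Over the 8 siLuc libraries Foxa1 and Cebpa had a Pearson's r of -0.69 in log2 CPM (exact permutation p = 0.0589, adjusted 0.447). Among the 5 siLuc libraries of digit 7 that r was 0.81, of opposite sign. Relative to the mean in TMM-scaled CPM, the SD in siLuc was 33.8% for Foxa1, 27.0% for Cebpa and 22.4% for Onecut1. It was 20.6% for Prox1, 19.0% for Onecut2 and 18.4% for Cebpb, against 10.3% for Foxa2, 7.09% for Foxa3 and 6.77% for Nfia. In FPKM, which is uneven for Cebpb in siLuc replicate 1, it was 40.9% for Cebpb and 32.8% for Cebpa. In siYap it was 49.2% for Prox1, 39.4% for Nfia, 35.4% for Cebpb and 31.8% for Onecut1 in TMM-scaled CPM, and lower for the others.

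Libraries were also compared after subtraction of the group means, to find the genes whose pattern over the 13 libraries was most like each factor. The likeness is Pearson's r of log2 CPM among 11263 tested genes whose mean reached 1 FPKM, passing over names of the Gm and Rik types. It is a description, since the highest of so many is large by selection. For Nfia and Foxa3 the r rests mainly on the 5 siYap libraries, where both spread more. Their SD was 39.4% and 26.8% of the mean in siYap, against 6.77% and 7.09% in siLuc, in TMM-scaled CPM. The 2 nearest were Dennd1a (0.97) and Prrc2b (0.96) for Nfia, Klhl18 (0.96) and Smad7 (0.94) for Onecut1, and Jmjd6 (0.95) and Rnf217 (0.93) for Foxa3. They were Lrrc8d (0.94) and Card10 (0.93) for Prox1, Per3 (0.92) and Slc22a26 (0.90) for Foxa1, and Apoa5 (0.91) and Mfsd2a (0.87) for Onecut2. For Cebpb they were Fcgrt (0.90) and Decr2 (0.89), for Cebpa Sdc2 and Sdf2l1 (both 0.89), and for Foxa2 Nags (0.89) and Slc39a3 (0.88).

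Of 10 further C/EBP, nuclear factor I, Onecut and Prox genes tested, 2 rose and none fell, with a median log2 fold change of 0.29. That is a share near the 16.0% of all tested genes that rose. The 2 were Nfic and Nfix. Nfic, a family member of liver and other tissues, was at 3.61, 1.88, 10.1, 1.79 and 1.89 FPKM in siYap replicates 1 to 5, against 0.830 ± 0.144 FPKM in siLuc (SD, n = 8). Its log2 fold change of 2.24 ± 0.37 (edgeR adjusted p = 0.000605) was 1.57 without siYap replicate 3 and 1.13 without siYap replicates 1 and 3. Nfix was at 4.19 ± 3.03 FPKM in siYap and 1.73 ± 0.304 FPKM in siLuc (log2 fold change 1.26 ± 0.29, edgeR adjusted p = 0.00520), and at a log2 fold change of 0.71 without siYap replicate 3. Nfib, the most abundant of the 4 nuclear factor I genes, missed the threshold at 36.5 ± 7.36 FPKM in siYap and 27.3 ± 3.07 FPKM in siLuc (edgeR adjusted p = 0.0610). It was called higher in 6 alternatives, among them the digit as a covariate (edgeR adjusted p = 0.0141), DESeq2 (adjusted p = 0.0480) and without siYap replicate 5 (edgeR adjusted p = 0.0197). The C/EBP relatives Cebpd, Cebpe, Cebpg, Cebpz and Ddit3 did not pass the test, nor did Onecut3 and Prox2.

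Other factors of the liver network rose more often than they fell. Of 16 tested, 8 rose and none fell, with a median log2 fold change of 0.58. Of all tested genes, 16.0% rose and 14.8% fell. Foxo1, the insulin-restrained forkhead factor, rose to 6.70 ± 2.23 FPKM in siYap, against 2.18 ± 0.414 FPKM in siLuc (edgeR adjusted p = 2.36e-05). Tbx3, a T-box factor and Wnt target, rose to 13.4 ± 4.05 FPKM in siYap, against 0.160 ± 0.078 FPKM in siLuc, a log2 fold change of 6.396 ± 0.42 (edgeR adjusted p = 6.28e-07). Without siYap replicate 3 alone 5 of the list rose. Without siYap replicates 1 and 3 it had 4 rises, Tbx3 and Foxo1 among them, and 1 fall. In that fit 9.82% of all tested genes rose and 9.56% fell. Of 12 nuclear receptors of hepatocytes, 4 rose (Rxra, Nr1i3, Nr0b2 and Ppara) and none fell, beside the 16.0% and 14.8% of all tested genes. Hnf4a was at 99.6 ± 28.5 FPKM in siYap and 87.5 ± 16.5 FPKM in siLuc (edgeR adjusted p = 0.340). Rxra, the shared partner of many nuclear receptors, ran from 40.7 to 73.7 FPKM in siYap and from 24.5 to 34.0 FPKM in siLuc. Nr1i3, the xenobiotic sensor CAR, ran from 27.6 to 97.2 FPKM in siYap and from 2.28 to 17.5 FPKM in siLuc. Nr0b2 lost its call without siYap replicate 1 or 3 (edgeR adjusted p = 0.0566 and 0.0532), and without replicate 3 the list had 2 rises. Ppara and Hnf4a are named after their values were seen.

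Genes taught as targets of FoxA, C/EBP and HNF6 in liver went both ways. Of 21 tested, 5 rose and 5 fell, with a median log2 fold change of 0.26, where 16.0% of all tested genes rose and 14.8% fell. Pfkfb1, a regulator of glycolysis with an HNF6-bound liver promoter, rose to 19.3 ± 7.16 FPKM in siYap, against 4.56 ± 1.28 FPKM in siLuc (edgeR adjusted p = 1.39e-05). Tat, tyrosine aminotransferase, rose to 409 ± 29.9 FPKM in siYap, against 139 ± 36.4 FPKM in siLuc (edgeR adjusted p = 3.86e-05). The acute phase gene Saa1 rose to 1309 ± 1185 FPKM in siYap, against 43.6 ± 30.2 FPKM in siLuc (edgeR adjusted p = 0.000199), and its siYap values spread from 136 to 2992 FPKM. Saa2, a near-identical copy of Saa1, and the bile acid enzyme Cyp7a1 were the other rises. Among the falls were Cps1 and Otc of the urea cycle, the glucose transporter Slc2a2 and the fetal protein Afp. Without siYap replicate 1 alone 3 of the 21 fell and without siYap replicate 3 alone 2, and Cps1 lost its call without siYap replicate 3 or 4 (edgeR adjusted p = 0.0606 and 0.0520). Saa2, Cyp7a1, Otc, Slc2a2 and Afp are named because the counts are small, after their values were seen.

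**Figure D4:**
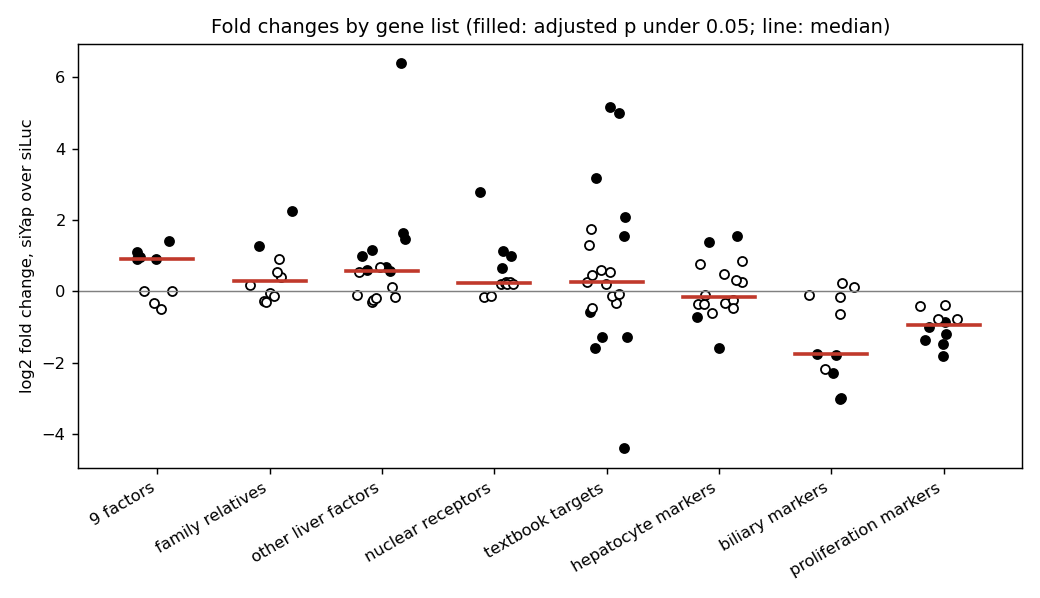
Log2 fold change (vertical axis, siYap over siLuc) of every tested gene in the 9 factors, 4 further lists of genes and 3 lists of markers, 1 point a gene, filled where the adjusted p was under 0.05, with the list median as a line. The medians are 0.90 for the 9 factors and 0.58 for the other liver factors, and -1.76 for biliary and -0.93 for proliferation markers.

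Markers of other cells moved beside these factors, where 16.0% of all tested genes rose and 14.8% fell. Biliary markers, of cells that also use Foxa1, Foxa2, Onecut1 and Onecut2, summed to 171 to 1152 FPKM in siYap and 1964 to 5106 FPKM in siLuc. Spp1 carried most of that sum, and the other 11 markers summed to 14.2 to 43.2 FPKM in siYap and 51.8 to 106 FPKM in siLuc. Of 11 tested 5 fell and none rose, with none at 0 in all libraries and with Spp1, Pkhd1 and Epcam of smallest p. The duct keratins Krt7 and Krt19, named after their values were seen, did not pass the test (Krt7 at 0.981 ± 0.422 FPKM in siYap and 0.935 ± 1.002 FPKM in siLuc, Krt19 at 0.863 ± 0.458 FPKM in siYap and 0.789 ± 0.672 FPKM in siLuc). Myeloid markers, of cells that use Cebpb and Cebpa, summed to 522 to 1623 FPKM in siYap and 783 to 1617 FPKM in siLuc. Of 15, 5 fell and 2 rose. Ly86 fell to 9.05 ± 1.76 FPKM in siYap, against 25.2 ± 8.89 FPKM in siLuc (edgeR adjusted p = 0.000973). Lyz2 fell to 304 ± 88.1 FPKM in siYap, against 768 ± 246 FPKM in siLuc (edgeR adjusted p = 0.00219). The other falls were Emr1, Csf1r and Clec4f. The rises were the neutrophil genes S100a8 and S100a9 (S100a9 at 184 ± 136 FPKM in siYap and 38.2 ± 20.04 FPKM in siLuc). Emr1, Csf1r, Clec4f and S100a8 are named after their values were seen. Of 10 proliferation markers 6 fell and none rose, and their sum was 19.9 to 55.5 FPKM in siYap and 25.3 to 127 FPKM in siLuc. Stromal and endothelial markers summed to 212 to 666 FPKM in siYap and 76.8 to 363 FPKM in siLuc, and 3 of 10 rose, of which Stab2 and Lrat lost their calls in most fits with 1 library left out. The part of these cells in the levels of the 9 factors was not tested.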

How the data were processed

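Tumour RNA of 5 siYap and 8 siLuc libraries was analysed. The kit was ScriptSeq Complete Gold and the sequencer a HiSeq2500, per the labels. Trimmomatic 0.30, TopHat2 2.0.8, Cufflinks and Cuffdiff 2.1.1 and the build mm10 are named in the submitters' processing notes. Neither the role of each tool nor the gene annotation is given there. The authors deposited 1 table per library with estimated counts (raw fragments per gene, unscaled, 97.6% to 98.0% of them within 1e-06 of a whole number) and FPKM scaled by their software, per the file headers. 3 genes with a mark of too much depth were left out. The series-wide FPKM table was not used.

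Estimated counts were rounded and tested with edgeR 4.0.16 in R 4.3.3 (quasi-likelihood F test, robust, TMM, default filter by group, 15132 genes, no covariates), with Benjamini-Hochberg adjustment over all genes and a threshold of 0.05. The SE is the log2 fold change over the root of F. The code was tested on simulated counts. Counts of any 2 libraries of 1 group differed beyond counting error (chi-square over its degrees of freedom at least 34.8). The members and lists were chosen with earlier results of these data known. Named were all 9 members, up to 3 genes of smallest p in each list and the 2 genes most like each member; others are named as chosen after their values were seen, where a count or a result turned on them. Some genes of the lists are counted but not reported here by name. Gene spans are from GENCODE M21 and promoters from RefSeq (GRCm38.p6). Alternatives used DESeq2 1.42.0, limma 3.58.1, upper-quartile scaling, other filters, log2(FPKM + 1) and log2(FPKM + 0.1), counts summed per number in the file names, the digit or the replicate number as a term, libraries left out, and an adjusted p under 0.01. Differences within a digit are of mean log2 CPM with a prior count of 2. The ratios in fragments were added after seeing the data.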

Additional observations from a re-analysis of the deposited data

Results flagged for a closer look

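Among 34 sets of values tested, each of 1 quantity in 1 group, 2 held a library far from the rest by Dixon's test, which chance alone gives in about 1 of 20 sets. Cebpb was at 17.2 FPKM in siLuc replicate 1, and the next siLuc library was at 9.17 FPKM. In TMM-scaled CPM the same library was at 14.0, within the siLuc range of 8.98 to 14.2. The share of Foxa2 in the summed FoxA level was 29.95% in siLuc replicate 2, and the next siLuc library was at 26.3%.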

How the results depend on the processing

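Nfia, Foxa1, Onecut2 and Cebpb kept their sign and their call under all 25 alternatives, with log2 fold changes of 0.93 to 1.54, 0.84 to 1.31, 0.82 to 1.03 and 0.72 to 1.14. Prox1 kept its sign in all and its call in 23, and lost it with the replicate block (0.82, adjusted p = 0.103) and without siYap replicates 1 and 3 (0.36, adjusted p = 0.164). Libraries of the same replicate number did not deviate together (correlations of -0.12 to 0.13 over 5 numbers). These values show no pairing by replicate number, but so few cannot exclude one. siLuc replicates 6 to 8 have no siYap library of their replicate number. They add nothing to the difference in the fit with the block, which thus rests on fewer libraries. With that replicate block, genes higher in siYap numbered 1199 and genes lower in siYap 1126, against 2422 and 2246 without it. Its rises were 1 family relative and 5 other liver factors, and 3 textbook targets fell.

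Without siYap replicates 1 and 3 together, 1512 genes rose and 1472 fell, 1 member fell, 4 other liver factors rose and 1 fell, and 3 textbook targets fell. At an adjusted p under 0.01, genes higher in siYap numbered 1264 and genes lower in siYap 1098, 4 other liver factors and 2 hepatocyte nuclear receptors rose, and 2 textbook targets fell. With limma on log2(FPKM + 1) and on log2(FPKM + 0.1) 3 textbook targets fell in each. With fragments summed per number in the file names, 5 other liver factors rose. With the digit as a term, 1 member fell (Cebpa).

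When each library was left out in turn, 1729 to 2397 genes rose and 1596 to 2236 fell. The members had 5 rises each time and 0 to 1 falls, family relatives 2 to 3 rises, other liver factors 5 to 9, nuclear receptors 2 to 4 and textbook targets 5 to 6 rises and 2 to 5 falls. Over all alternatives, single named genes lost a call 51 times, gained one 12 times, and Foxa2 and Foxa3 changed sign 23 times without a call. Foxa2, near 0 in every fit, changed sign with upper-quartile scaling (-0.013), DESeq2's test (-0.0013), no filter (-0.0054), limma (-0.015 and -0.017), the digit (-0.016) and the replicate block (-0.00087), and ran from -0.075 to 0.089 with a library left out. Foxa3 did so with upper-quartile scaling (-0.013), DESeq2's test (-0.00076), no filter (-0.0050), limma (-0.051 and -0.053) and the digit (-0.012), and ran from -0.15 to 0.12. In fragments in place of FPKM, the log2 difference between groups was 1.35 against 1.46 for Cebpb over Cebpa. The cause of these changes was not tested. The fewest fragments in any library were 100 for Foxa1 and 116 for Onecut1.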

Other observations

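Relations between the factors were examined within the 8 siLuc libraries only, since pooling would mix the treatments and siYap has fewer than 6 libraries. They carry 5 numbers in their file names, so some may not be independent. Of 36 pairs in log2 CPM, 21 had a positive Pearson's r, 2 had an unadjusted two-sided exact permutation p under 0.05 for r, and none passed adjustment over the pairs (lowest adjusted p 0.447 for Pearson's r and 0.261 for Spearman's rho). Cebpb and Onecut2 had a Pearson's r of 0.72 (exact permutation p = 0.0263, adjusted 0.447) and a Spearman's rho of 0.88 (exact permutation p = 0.00724, adjusted 0.261). Without the 2 libraries farthest from the median of Cebpb the r was 0.40, and among the 5 siLuc libraries of digit 7 it was 0.94. Onecut1 and Prox1 had an r of 0.75 (exact permutation p = 0.0326, adjusted 0.447) and a rho of 0.81 (exact permutation p = 0.0218, adjusted 0.261), with 0.64 without the 2 farthest libraries and 0.77 within digit 7.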
